A study of Homo sapiens with 4 samples.

Results

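The genes described here encode transcription factors of the ETS and AP-1 families, some members of which pair with interferon regulatory factors (IRFs) on DNA. They are the ETS genes SPI1, SPIB, ETS1 and ETV6, the BATF family genes BATF, BATF2 and BATF3, and JUND, a Jun family gene. These 8 genes, of 20037 protein-coding genes, were listed by name. Their IRF3 peaks were chosen by position, as the peaks with a summit inside the gene span or within 25 kb of either side of it. The rule took 34 of 41880 peaks in IRF3 ChIP replicate 1 and 37 of 41666 peaks in IRF3 ChIP replicate 2. Overlapping peaks (1 bp or more) were joined across the replicates, and a joined stretch that took a peak from each replicate is called a shared region. The windows held 28 of the 32246 shared regions of the genome, 4 regions of replicate 1 alone and 9 of replicate 2 alone.

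The data are ChIP-seq of IRF3, with 2 ChIP libraries and 2 input libraries from untreated MM1.S cells, an established human multiple myeloma line grown in RPMI medium with serum. No group carried a treatment or a genetic change. Separate cultures are not stated in the labels, and the replicates may differ for technical reasons alone. Each peak list set 1 ChIP library against its own input, with 38568845 and 46474586 ChIP tags and 58025919 and 60348415 input tags in replicates 1 and 2. The peak lists hold no expression values, so the levels of the 8 genes, and the markers of the cell line, were not analysed here. With 2 libraries and no second condition, the values below are a description, without a test between conditions.

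IRF family proteins have a helix-turn-helix DNA-binding domain that contacts GAAA half-sites. IRF4 and IRF8 bind some DNA weakly on their own and are recruited by partners. PU.1 (the product of SPI1) and SPIB recruit them to ETS-IRF composite elements, and dimers of a BATF protein with a Jun protein recruit them to AP-1-IRF composite elements. IRF3 is instead known for binding paired half-sites as a dimer after phosphorylation by TBK1. The genes of the partners are described here as places where IRF3 was found, which says nothing of the binding of their products.

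An IRF3 region found in both replicates lay at an end of the gene itself at SPI1, ETV6, BATF and JUND and not at SPIB, ETS1, BATF2 and BATF3. Occupied here means that a shared region had its summit no more than 1 kb from an end of the gene's span. The count was 4 of 8 genes (exact 95% interval 15.7 to 84.3%), beside 50% of all protein-coding genes, so the 8 genes stood at the background level. Within 5 kb SPIB joined them, giving 5 of 8 genes beside 58.9% of all protein-coding genes. At a fold enrichment of at least 5 in the peaks of both replicates, 2 of 8 genes were occupied, namely JUND and ETV6, beside 28.6% of all protein-coding genes. Of the 28 shared regions, 8 reached that level in both replicates, beside 30% of all shared regions. Fold enrichment is the authors' ratio of the stacked ChIP fragments at a summit to the local input background there.

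The RefSeq promoter table (GRCh38.p14) held 5 of the 8 genes, namely SPIB, ETV6, BATF, BATF2 and JUND. It gives the 250 bases before a gene's start and the 50 bases from the start on. A shared region had its summit within 1 kb of the start at 3 of these 5 genes (ETV6, BATF and JUND), beside 51.9% of protein-coding genes with a start in the table. The promoters of these 3 genes are shown because they are the ones on which IRF3 peaks lay, at chr12:11649424-11649723 on the plus strand (ETV6), chr14:75522219-75522518 on the plus strand (BATF) and chr19:18281573-18281872 on the minus strand (JUND). Capitals mark the match to a searched motif.
ETV6: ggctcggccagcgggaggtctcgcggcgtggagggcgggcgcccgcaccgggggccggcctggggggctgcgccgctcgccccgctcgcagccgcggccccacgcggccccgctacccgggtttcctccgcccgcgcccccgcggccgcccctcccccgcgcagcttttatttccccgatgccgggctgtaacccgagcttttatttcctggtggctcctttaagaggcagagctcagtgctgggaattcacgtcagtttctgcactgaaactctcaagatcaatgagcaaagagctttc
BATF: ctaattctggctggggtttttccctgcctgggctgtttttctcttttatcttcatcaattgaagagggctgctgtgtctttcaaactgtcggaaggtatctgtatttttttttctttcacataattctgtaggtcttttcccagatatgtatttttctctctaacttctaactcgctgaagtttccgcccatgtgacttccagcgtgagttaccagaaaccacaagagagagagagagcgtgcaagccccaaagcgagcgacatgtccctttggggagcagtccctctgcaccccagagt
JUND: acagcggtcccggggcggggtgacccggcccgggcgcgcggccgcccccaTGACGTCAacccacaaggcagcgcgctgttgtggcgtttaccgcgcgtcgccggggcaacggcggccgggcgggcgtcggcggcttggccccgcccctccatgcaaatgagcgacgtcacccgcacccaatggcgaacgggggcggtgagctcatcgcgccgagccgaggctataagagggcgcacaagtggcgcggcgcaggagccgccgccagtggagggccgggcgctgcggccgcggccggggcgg

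The promoters differed in base composition, with 69% G and C in ETV6, 46% in BATF and 77% in JUND, beside a median of 62.7% over 15860 promoters of protein-coding genes (quartiles 54 and 70.3%). CpG dinucleotides numbered 33, 7 and 49. Motifs were searched on both strands. The IRF pair was GAAANNGAA, the ETS-IRF composite was GGAANNGAA, the ETS site was CCGGAAG, the AP-1 site was TGANTCA and the cyclic AMP response element was TGACGTCA. The AP-1-IRF composite was TTTC, then 4 bases of any kind, then the AP-1 site, so each of its matches also holds an AP-1 match. Of all promoters of protein-coding genes of this length, the shares with a match were 7.07%, 7.39%, 14.2%, 5.76%, 2.59% and 0.0567% in that order. In the 5 promoters there was 1 match, the cyclic AMP response element of JUND, at positions -200 to -193 from the start. The other 4 promoters held none of these letters in the window. For BATF2 the sequence searched (chr11:64990228-64990527, minus strand) lay inside the gene span, away from both ends. The sequence at the higher-coordinate end of BATF2 was therefore not searched.

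SPI1 (gene ID 6688, chr11:47354860-47378547) encodes PU.1, a regulator of myeloid and B cells whose gene is known to be low in plasma cells. The region at its higher-coordinate end (chr11:47378351-47378922) was weak. Replicate 1 had a fold enrichment of 4.33 and replicate 2 one of 3.40. The summit lay 198 bp outside the span, with 31 and 26 stacked ChIP fragments. Exact Poisson 95% intervals were 21.1 to 44.0 and 17.0 to 38.1 fragments, and they overlapped. Among the 10025 occupied protein-coding genes, ranked by the worse of their ranks in the replicates, SPI1 stood at percentile 11.4, where 100 is the strongest.

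The second shared region of SPI1 lay 16.3 kb outside the span, inside the long non-coding RNA gene SLC39A13-AS1 (chr11:47394579-47395164). Its fold enrichment was 5.38 in replicate 1 and 2.27 in replicate 2. The replicates disagreed more there than at most places, since a ratio of replicate 2 to replicate 1 of 0.42 or less was found in 0.295% of shared regions. Regions of replicate 1 alone (5.16, 14986 bp outside the span) and of replicate 2 alone (3.86, 22.3 kb outside) lay on the same side of SPI1. No peak of either replicate had a summit inside the SPI1 span.

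SPIB (gene ID 6689, chr19:50418938-50431314), a lymphoid relative of PU.1, had 1 region in its window. It lay 3051 bp before the start of SPIB and inside the neighbouring gene POLD1, a DNA polymerase subunit gene, 2.13 kb from an end of that gene (chr19:50415632-50416071). Fold enrichments were 4.56 and 4.45 in replicates 1 and 2. Heights were 23 fragments (interval 14.6 to 34.5) and 24 fragments (15.4 to 35.7), with overlapping intervals. The local background was near the genome-wide level in both libraries, at 1.12 and 1.07 times that level.

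ETS1 (gene ID 2113, chr11:128458765-128587558) encodes an ETS activator of lymphocytes that is known in mice to restrain plasma cell formation. It had no region of either replicate within 1 kb of its ends. Its best-ranked region instead lay inside the span, 63.9 kb from the nearer end (chr11:128521963-128523196). Fold enrichments were 9.59 and 18.4 in replicates 1 and 2, at percentiles 95.9 and 98.0 of the peak lists. The microRNA gene MIR6090 had an end 176 bp from the summit. ETS1 is known to have transcripts that start inside its span. The gene table gives no transcripts and the promoter table did not hold ETS1, so whether this summit lay at a start site could not be told.

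The heights at this ETS1 region went the other way from the fold enrichments. Replicate 1 had 238 stacked fragments (interval 208.7 to 270.2) and replicate 2 had 160 (136.2 to 186.8), which is 6.17 and 3.44 fragments per 1000000 ChIP tags. The local background was 23.9 fragments in replicate 1 and 7.73 in replicate 2. The higher fold enrichment of replicate 2 thus went with a lower background and a lower ChIP height.

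Of the other shared regions of ETS1, the strongest lay 23.4 kb outside the span, in the long non-coding RNA gene LOC105369568 (chr11:128609959-128611662). Its fold enrichments were 9.72 and 9.08, close to the first region in replicate 1 and lower than it in replicate 2. The remaining regions, both inside the span, had 5.43 and 4.19 (chr11:128468373-128469714) and 3.44 and 3.57 (chr11:128548584-128548942). ETS1 also had the most regions found in a single replicate, with 3 in replicate 1 (fold enrichments 2.24, 3.39 and 2.75) and 2 in replicate 2 (2.77 and 2.89).

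ETV6 (gene ID 2120, chr12:11649674-11895377) encodes an ETS repressor and held most of the IRF3 regions. Of the 28 shared regions, 15 lay in its window of 295.7 kb, which made up 34.4% of the length of the 8 windows. At least 15 shared regions were found in the windows of 42 protein-coding genes (0.21%). Windows differ in length, and per 100 kb ETV6 had 5.07 shared regions, at percentile 85.8 of protein-coding genes, whose median was 1.72. The other 7 windows held 1 to 4 shared regions each, as the plot of regions against window length shows.

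**Figure D1:**
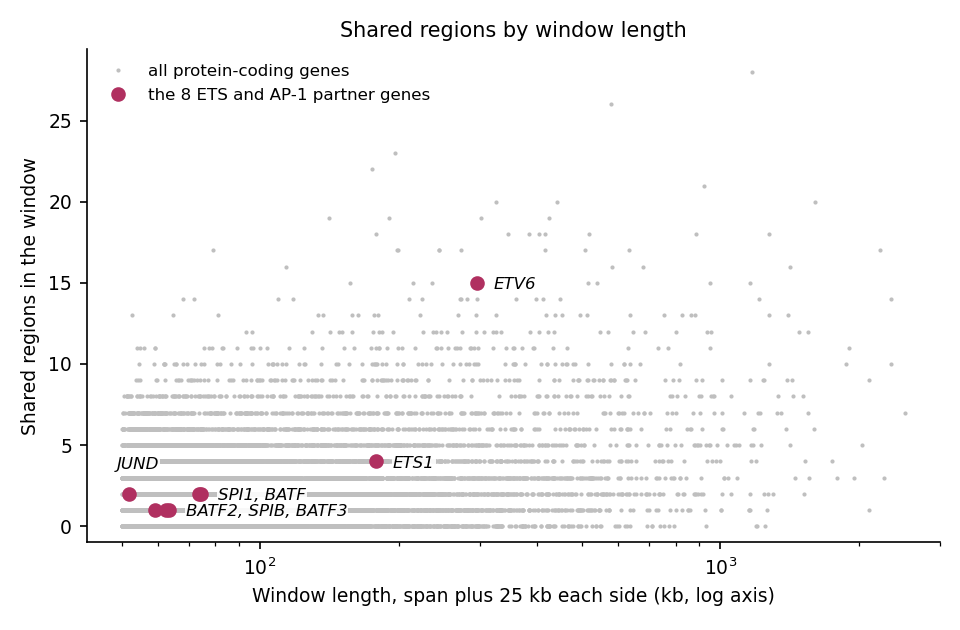
Number of shared IRF3 regions (vertical axis) against window length in kb on a log axis, for all 20037 protein-coding genes (grey) and the 8 partner genes (red). ETV6 stands at 15 regions and ETS1 at 4, and the other 6 genes have 1 or 2 each.

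Both ends of ETV6 carried a region, as in 2.82% of protein-coding genes. The region at the start (chr12:11648591-11650517, 1927 bp long) had its summit 608 bp before the start and fold enrichments of 8.16 and 12.4 in replicates 1 and 2. It ranked at percentile 84.4 of occupied genes. The region at the other end (chr12:11894788-11895542) had its summit 258 bp inside the span and fold enrichments of 7.48 and 6.99.

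The remaining 13 shared regions of ETV6 lay inside the gene body, and the gene table does not tell exon from intron. All fell between 82.5 and 186.9 kb from the start, a stretch of 104.4 kb. Shared regions inside a coding gene body away from gene ends made up 37.2% of shared regions over the genome. That share takes in regions far from genes. The ETV6 window is mostly gene body by its making (span 245.7 kb of 295.7 kb), so the shares are not alike. The lowest, median and highest fold enrichment of the body regions were 2.64, 4.06 and 5.50 in replicate 1 and 2.77, 4.21 and 8.20 in replicate 2. Every one of the 13 was below the start region in fold enrichment in both replicates. The highest in both replicates was the last one (chr12:11836111-11837023, 5.50 and 8.20), with 191 and 96 stacked fragments, the most among the 13. The start region had 159 and 136 fragments, so in replicate 1 the last body region was higher in fragments.

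**Figure D2:**
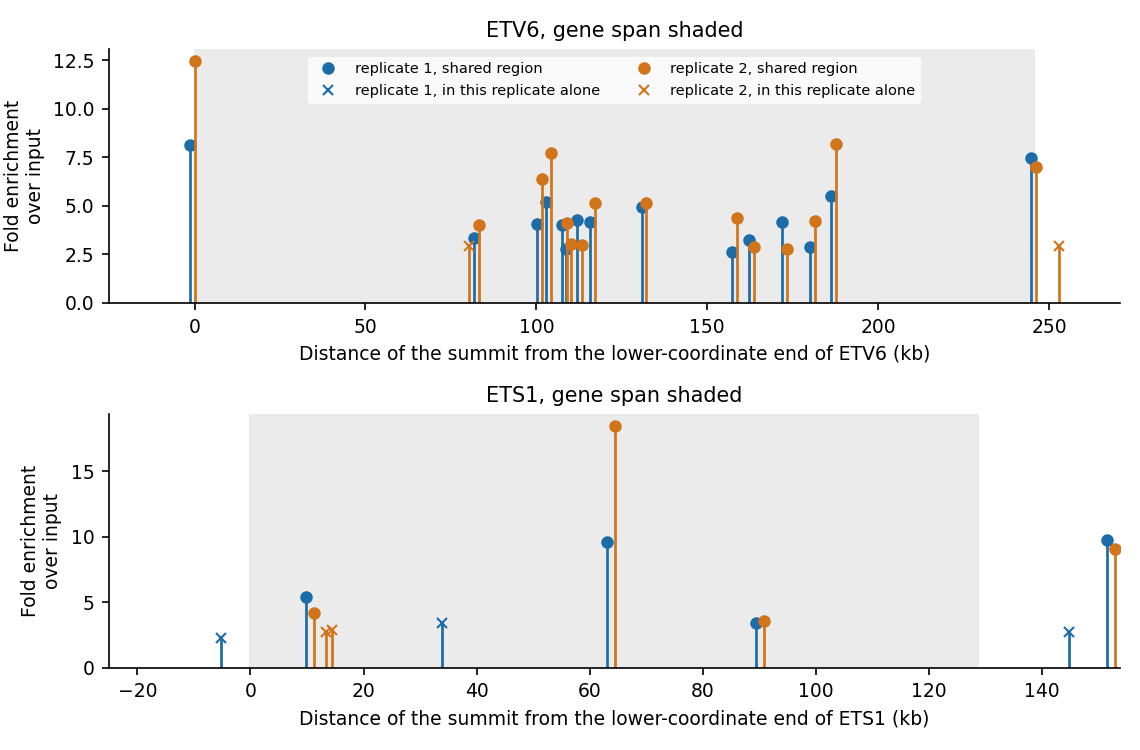
Fold enrichment over input of each IRF3 peak region (vertical axis) against the distance of its summit from the lower-coordinate end of ETV6 (top) and ETS1 (bottom) in kb, with the gene span shaded, circles for shared regions and crosses for regions of 1 replicate, and the replicates drawn slightly apart. ETV6 has a region at each end and 13 between 82.5 and 186.9 kb. ETS1 has none within 1 kb of an end and its best-ranked at 63.9 kb.

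BATF (gene ID 10538, chr14:75522469-75546992), a partner of Jun proteins in B and T cells, had a region at its start whose summit lay 54 bp inside the gene (chr14:75522227-75522707). The replicates gave nearly the same fold enrichments, of 4.98 and 5.17. Heights were 47 and 40 fragments, with overlapping intervals (34.5 to 62.5 and 28.6 to 54.5). BATF stood at percentile 35.1 of occupied genes, above SPI1 and below ETV6. The second region lay 22002 bp beyond the other end and 9.63 kb from an end of FLVCR2 (chr14:75568759-75569281, 3.08 and 4.75).

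BATF2 (gene ID 116071, chr11:64987945-64996971), known as an interferon-induced gene, had no peak of either replicate within 1 kb of its ends or inside its span. The 1 shared region of its window lay 16.9 kb outside the span and 285 bp from an end of ARL2, a small GTPase gene (chr11:65013532-65014839). That region had fold enrichments of 4.46 and 8.79, and its replicate summits lay 479 bp apart, the widest distance among the 28 regions (median 55 bp). When summits had to lie within 200 bp of each other, BATF2 had no shared region.

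BATF3 (gene ID 55509, chr1:212686417-212699840), known in mice for its role in dendritic cells, had a peak of replicate 2 alone at its higher-coordinate end. That peak had a fold enrichment of 3.3 and a summit 507 bp inside the span (chr1:212699195-212699951), with 45 stacked fragments (interval 32.8 to 60.2). A region of replicate 2 alone with no shared region at either end was found in 5.07% of protein-coding genes. The 1 shared region lay 21.0 kb outside the span and 187 bp from an end of the long non-coding RNA gene LINC02773 (chr1:212665315-212665664). It was among the weak regions in replicate 1, with fold enrichments of 2.48 and 4.95 at percentiles 8.52 and 59.8 of the lists.

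JUND (gene ID 3727, chr19:18279694-18281622), which encodes a Jun family partner of BATF and Fos proteins, had the strongest region of the 8 genes. Fold enrichments were 16.0 in replicate 1 and 46.6 in replicate 2, at percentiles 99.3 and 99.8 of the peak lists. Its region ranked 211 of 32246 and JUND stood at percentile 98.1 of occupied genes. The region was 3341 bp long (chr19:18279302-18282642) and spanned the whole gene, and 0.89% of shared regions were at least as long. This length was that of 1 peak of replicate 2. Replicate 1 had 2 peaks there with a gap between them (chr19:18279383-18280849, fold enrichment 5.17, and chr19:18281084-18282416, 16.0). The summit lay 69 bp after the start. The cyclic AMP response element shown in capitals above lay inside the region.

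The ChIP signal at JUND was the highest of the 28 regions in both libraries. It had 504 stacked fragments in replicate 1 (interval 461.0 to 550.0) and 656 in replicate 2 (606.8 to 708.2), or 13.1 and 14.1 per 1000000 ChIP tags. The local background was 30.6 and 13.1 fragments, which is 8.02 and 3.03 times the genome-wide level of each library. The second shared region of its window lay 1174 bp from an end of LSM4, an RNA-processing gene (chr19:18303148-18305484, 5.59 and 9.21). Regions of replicate 2 alone lay 848 bp from the other end of JUND (2.86) and at ends of PDE4C (4.98) and LSM4 (2.69).

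**Figure D3:**
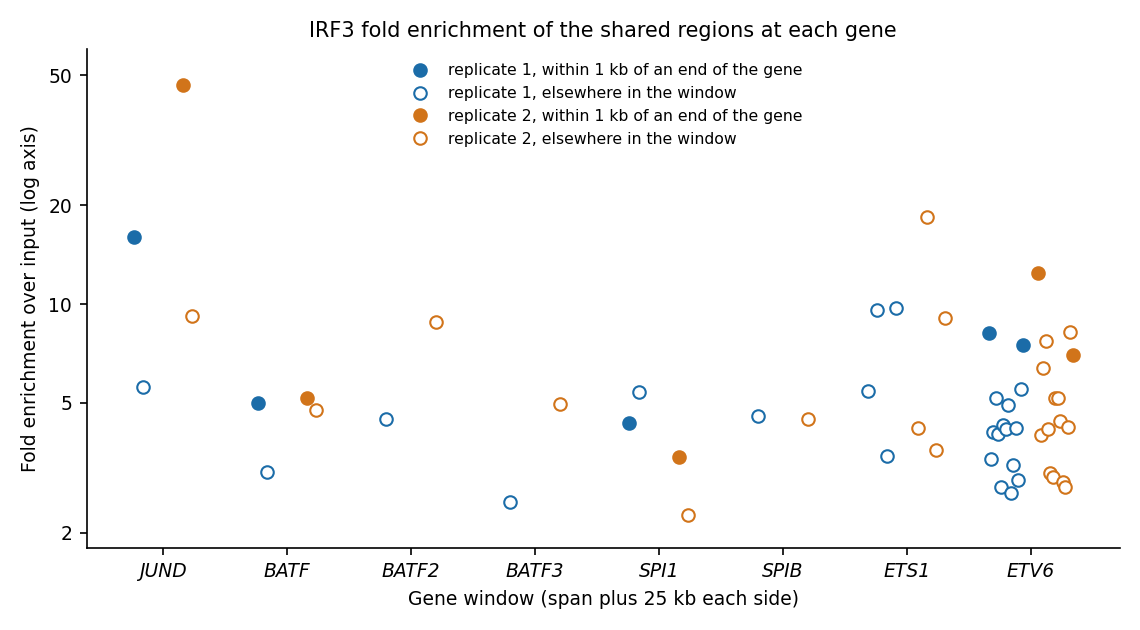
Fold enrichment over input on a log axis for the 28 shared regions, by gene window, in replicate 1 (blue) and replicate 2 (orange), with filled circles for regions within 1 kb of an end of the gene. JUND reaches 16.0 and 46.6, ETS1 and ETV6 follow, and the filled circles of BATF and SPI1 lie between 3.40 and 5.17.

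By the best-ranked region of each window, the order of the genes was JUND, ETS1, ETV6, BATF2, BATF, SPIB, SPI1 and BATF3. Within each replicate, JUND was above ETS1, ETS1 above ETV6 and ETV6 above BATF2. The order changed between the replicates for BATF2 against BATF and SPIB, and for BATF3 against SPIB and SPI1. Ranges over both replicates, which take in the difference between the libraries, did not separate all neighbours in the order above. The range of JUND (16.0 to 46.6) overlapped that of ETS1 (9.59 to 18.4), and the range of ETS1 overlapped that of ETV6 (8.16 to 12.4). JUND and ETV6 did not overlap. The values of ETV6 also overlapped those of BATF2 (4.46 to 8.79). BATF (4.98 to 5.17) lay inside the range of BATF2. The range of BATF2 also overlapped those of SPIB (4.45 to 4.56) and BATF3 (2.48 to 4.95). SPIB lay below BATF and above SPI1 (3.40 to 4.33), and the range of BATF3 took in those of SPIB and SPI1. Just inside the 25 kb limit lay the regions at 23.4 kb (ETS1, JUND), and the nearest shared regions outside it were at 29.4 kb (BATF3), 29.6 kb (SPI1) and 30.6 kb (BATF2).

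The difference between the libraries was larger in the background than in the ChIP signal. The local background was lower per 1000000 ChIP tags in replicate 2 at all 28 regions (97.7% of shared regions over the genome), with a median ratio of replicate 2 to replicate 1 of 0.49. The ChIP height per 1000000 tags was lower in replicate 2 at 26 of 28 regions (93% over the genome), with a median ratio of 0.63. Fold enrichment, the quotient of these quantities, was higher in replicate 2 at 19 of 28 regions (68.2% over the genome), with a median ratio of 1.14. Medians over all 32246 shared regions were 0.50, 0.63 and 1.19, so the 28 regions were close to the genome in all 3 ratios. The 2 regions with a greater height per 1000000 tags in replicate 2 were that of JUND and an ETV6 body region (chr12:11807330-11808195, 42 and 55 fragments).

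**Figure D4:**
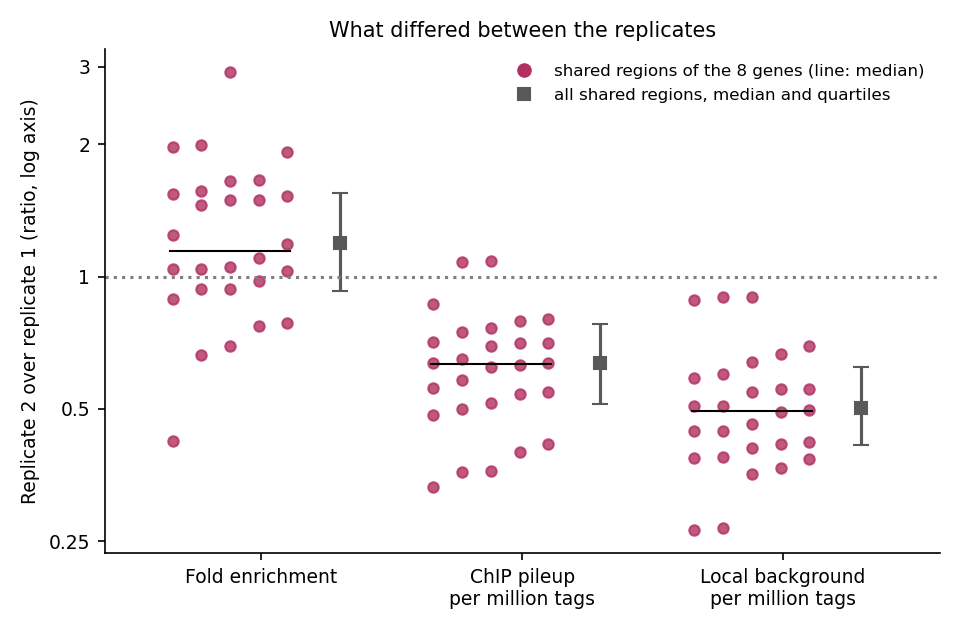
Ratio of replicate 2 to replicate 1 on a log axis for fold enrichment, ChIP pileup per 1000000 ChIP tags and local background per 1000000 ChIP tags, for the 28 shared regions (red, line at the median) and all 32246 shared regions (grey square at the median, bars at the quartiles). Background lies below 1 at all 28 regions and pileup at 26, while fold enrichment lies above 1 at 19.

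Members of both families outside the 8 genes were described from lists of 24 ETS genes and 8 AP-1 genes. Of the other ETS genes, 9 of 24 were occupied (37.5%, exact 95% interval 18.8 to 59.4%), beside 50% of all protein-coding genes. The best-ranked were ELF1 (fold enrichments 7.41 and 8.51), ELK4 (6.45 and 13.7), a partner of serum response factor, the repressor gene ETV3 (6.25 and 16.4), ELF2 (5.44 and 7.93) and ELK1 (5.29 and 7.83). The start of ETV6 (8.16 and 12.4) was above ELF1 in both replicates. In replicate 2 the ETV6 start was below ELK4 and ETV3, and just below GABPA (12.5). Of the other AP-1 genes, 5 of 8 were occupied (62.5%, interval 24.5 to 91.5%). These were JUNB (21.2 and 35.9), JUN (9.70 and 37.6), FOSL2 (7.46 and 29.7), FOS (6.02 and 38.8) and FOSL1 (2.44 and 3.17). The Jun genes JUND, JUNB and JUN lay at percentiles 98.1, 99.2 and 91.6 of occupied genes.

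JUND and several genes of both lists had a large difference between the replicates. The JUND ratio of replicate 2 to replicate 1 was 2.92, and 334 of 32246 shared regions had a ratio at least as high. The ratios were 6.45 at FOS, the highest of all shared regions, 3.98 at FOSL2 and 3.88 at JUN, beside 1.69 at JUNB and 1.3 at FOSL1. At FOS the heights differed as well, at 65 fragments in replicate 1 and 263 in replicate 2, or 1.69 and 5.66 per 1000000 ChIP tags. At JUND the heights per 1000000 tags were close (13.1 and 14.1) and the background per 1000000 tags was 0.79 and 0.28. Both departed from the genome. The JUND ratio of replicate 2 to replicate 1 was 1.08 for height, beside a median of 0.63 over all shared regions. For background it was 0.36, beside a median of 0.50. Of the other occupied ETS genes, all 9 had a ratio above 1, beside 68.2% of all shared regions. The share among regions at gene ends alone was not computed. The 9 ratios lay between 1.15 at ELF1 and 2.63 at ETV3 (percentile 98.0 of shared regions). GABPA and ETS2, named here after their values were seen, had 2.55 and 2.15, and ELK4 had 2.12. At the end regions of the members the ratios were 0.79 at SPI1, 1.04 at BATF, and 1.52 and 0.93 at the start and the other end of ETV6. What set these ratios was not tested.

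**Figure D5:**
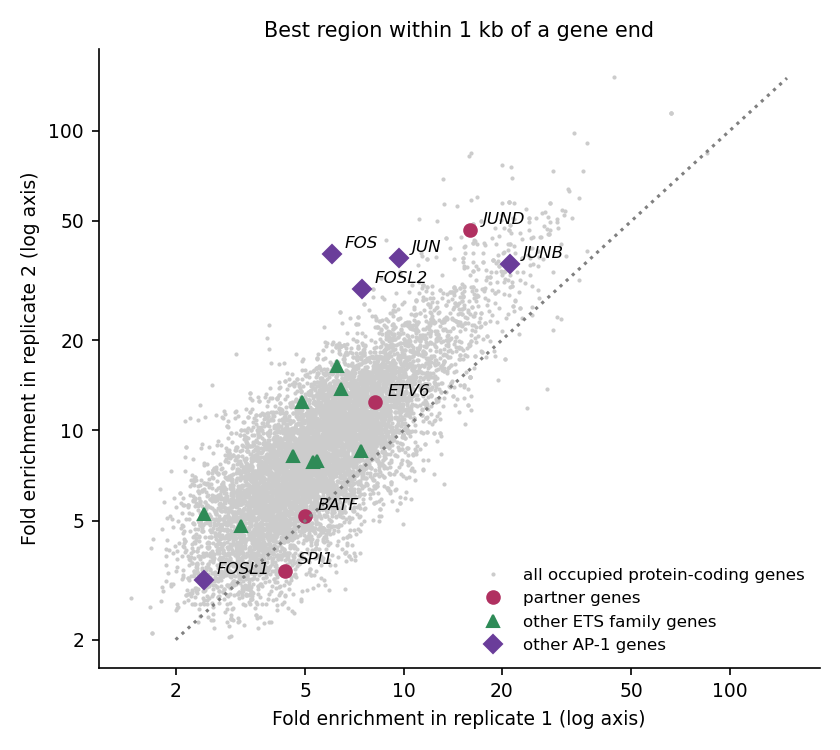
Fold enrichment of the best-ranked region within 1 kb of a gene end in replicate 1 (horizontal, log axis) and replicate 2 (vertical, log axis), for all occupied protein-coding genes (grey), the partner genes (red), other ETS genes (green) and other AP-1 genes (purple), with a dotted line of equal values. JUND, FOS, JUN and FOSL2 lie far above the line, as do the ETS genes ETV3 and GABPA, and SPI1 lies below it.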

How the data were processed

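IRF3 ChIP-seq was available as 1 peak list for each of 2 ChIP libraries of MM1.S cells. Input libraries entered through the peak calls. The authors' caller was MACS 2.1.2 in its narrow mode, per the file headers, run on each ChIP with its own input at a q-value limit of 0.05 and with duplicate tags kept at that step. Tags were 74 bp and modelled fragments 267 and 251 bp. The submitters' processing notes name GRCh38, deepTools 3.3.1, SAMtools 1.2, Picard 2.6.0, BWA 0.7.15 and MACS2 2.1.1, without roles. Whether duplicates or problem regions were removed earlier is not stated.

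The deposited fold enrichment of a peak is a ratio, and the pileup the authors deposited is a signal counting the ChIP fragments stacked at the summit. Damaged column names hold −log10 values of p and q, as deposited, which were told apart by the order of MACS2 columns and by the first exceeding the second at every peak. All are the authors' values for each peak, used to describe and rank peaks. The local background was recovered as (pileup + 1) / fold enrichment − 1. A Poisson tail at that background gave the deposited −log10 p within 0.01 at 100% of the 41594 and 41316 peaks with a finite tail. The genome-wide background was 3.81 and 4.32 fragments in replicates 1 and 2.

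Peaks overlapping by at least 1 bp were merged with Python 3.11.15, pandas 2.3.3 and numpy 2.4.6, and the merging was tested on simulated data. The strongest peak of each replicate gave a region its values, and the strongest of all its summit. Genes came from a RefSeq table of GRCh38.p14 with spans and no exons. Intervals are Clopper-Pearson or exact Poisson at the 95% level (scipy 1.17.1) and cover counting error only.

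No test between conditions was made. Named genes were all 8 members, the 5 best-ranked occupied genes of each family list, and coding genes with an end within 1 kb of a shared summit in a window. Other genes near a region, FLVCR2, POLD1, LSM4, PDE4C and the non-coding genes, were named after their values were seen. With 2 libraries, no gene was named for likeness of pattern. The members and lists were chosen with earlier results of these data known. Alternatives changed the overlap rule, the peak threshold, the flank, the distance to an end and the replicates used.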

Additional observations from a re-analysis of the deposited data

How the results depend on the processing

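Of 36 alternatives for the 4 counts over genes and regions, 32 stayed within 1.5 times the value reported. The exceptions came with fewer peaks or a narrower rule. With peaks of fold enrichment of at least 5, the windows held 8 shared regions (28 reported), 2 members were occupied (4) and 5 other ETS genes were occupied (9). With summits within 200 bp, 5 other ETS genes were occupied. Of 88 alternatives for the count or the strongest fold enrichment of single windows, 23 moved a count by over 1.5 times. The 15 regions of ETV6 did so only at a fold enrichment of at least 5 (4 regions). Fold enrichments of a single replicate were set against the mean of both replicates, which damps the change. Even so, the JUND value moved by over 1.5 times with replicate 1 alone (16.0, against a mean of 31.3). Peaks of replicate 1 alone gave ETS1 8 regions in place of 4, and peaks of replicate 2 alone gave JUND 5 in place of 2 and BATF3 2 in place of 1. With the peaks of a single replicate, the windows held 34 to 37 regions, and 4 to 5 members, 10 to 13 other ETS genes and 5 to 7 other AP-1 genes were occupied. The share of all protein-coding genes is not given here for a single replicate or for summits within 200 bp. The 50% given above holds for shared regions, so these counts have no background beside them. No paired analysis was possible because the result comes from no test and the input libraries have no values of their own. The number of stacked fragments, from 17 upwards in these windows, limits how precisely the weak regions were measured.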
